A study of Homo sapiens with 24 samples.

Results

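The libraries described are the pair of HEK293T samples in which RPRD1A and RPRD2 were silenced together, labelled RPRD1A_RPRD2_KD, set against the pair labelled CTRL. They were chosen by sample title and make up 4 of the 16 HEK293T samples and of the 24 samples of the series, which was designed to study how RPRD proteins affect the amount of steady-state RNA. HEK293T is an established human embryonic kidney line. Per the labels, both groups were transfected with small interfering RNAs (siRNAs), the control group with one listed as control, for 48 h, with no other genetic change or agent listed. RNA was isolated in TRIzol and polyadenylated RNA is the molecule listed, and sequencing used the QuantSeq 3′ REV chemistry, in which reads begin at the 3′ ends of transcripts. The siRNA sequences and doses are not given in the sources used here. Nothing in the labels says whether the samples of a group came from separate cultures, so p-values measure only the spread between these samples, which may be technical. The same-cell-line groups RPRD1A_KD and RPRD2_KD, each with 2 samples, served for comparison with the single knockdowns.

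RPRD1A, RPRD1B and RPRD2 belong to a family of proteins that carry a CTD-interaction domain. With it they bind the C-terminal domain (CTD) of the largest subunit of RNA polymerase II, a tail of repeated heptapeptides that kinases phosphorylate and phosphatases dephosphorylate in the course of transcription. RPRD proteins are known as partners of polymerase II that help recruit phosphatase activity to the CTD. They act in a setting shared with the CTD kinases, elongation factors, the cleavage and polyadenylation machinery and the Integrator complex.

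Total counts in genes were 1833696 and 2209270 in CTRL, and 1817246 and 3135625 in replicates 1 and 2 of RPRD1A_RPRD2_KD, the lowest and the highest total of the 16 HEK293T libraries, in which 15975 to 17093 genes were detected. On the CPM scale (counts scaled to a common library size after TMM normalisation), 3 counts, the floor of detection used here, correspond to 1.003 to 1.71 CPM. All 8 HEK293 markers were detected in both groups, though PAX2, at 0.57 CPM, was below that floor in CTRL replicate 1. Their summed levels were 217 and 286 CPM in CTRL and 193 and 197 CPM in RPRD1A_RPRD2_KD. VIM was the largest part, with 131 and 154.5 CPM in CTRL and 105 and 75.2 CPM in RPRD1A_RPRD2_KD. The leukocyte markers PTPRC, CD3E, CD79A and LYZ and the hepatocyte marker ALB were at 0 in all 4 libraries. Of 5 fibroblast markers 3 were detected, with summed levels of 10.3 and 13.2 CPM in CTRL and 6.56 and 12.7 CPM in RPRD1A_RPRD2_KD, most of it COL1A1, and COL1A2 and DCN were at 0. Replicate 2 of RPRD1A_RPRD2_KD stood apart from every other library. Its score on the first principal component of the 16 libraries was -51.6, against -2.51 to 11.3 in the other 15. Replicates of the group differed with a chi-square of 11.8 per degree of freedom, against 6.1 for CTRL, 5.13 for RPRD1A_KD and 3.83 for RPRD2_KD. The 10 most abundant genes took 9.74% of its counts and 7.56% to 9.22% in the other 15 libraries. A second split follows the replicate number: reads outside annotated genes made up 34.3% to 36.7% of reads in the replicate 1 libraries and 27.4% to 29.8% in the replicate 2 libraries. On the second principal component, replicate 1 libraries scored 7.99 to 13.8. Replicate 2 libraries scored -18.3 to -9.04 there, except that of RPRD1A_RPRD2_KD, which scored 5.89. Each result is therefore given for both libraries separately. For some genes and counts, differences from the control of the same replicate number are given beside those from both controls.

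Both targeted genes were lower in both knockdown libraries, and the 2 libraries agreed closely on them. RPRD1A (chromosome 18, 35984387 to 36067576, GRCh38) was at 156 and 166 CPM in CTRL and at 19.1 and 19.7 CPM in RPRD1A_RPRD2_KD. The remaining level was 12.1% of control. RPRD1A fell by 3.05 on the log2 scale (SE 0.257, edgeR quasi-likelihood test, adjusted p = 1.65e-05). RPRD2 (chromosome 1, 150363091 to 150476566) was at 98.6 and 102 CPM in CTRL and at 47.0 and 49.2 CPM in the double knockdown, or 47.9% of control, with no overlap between the groups. Its log2 fold change of -1.06 (SE 0.181) did not pass the test across all genes (edgeR, adjusted p = 0.121, range 0.000253 to 0.9999 over the alternatives). RPRD1B, which the label does not name, was at 28.5 and 28.3 CPM in CTRL and at 23.5 and 19.4 CPM in the double knockdown, a log2 fold change of -0.42 (SE 0.38, edgeR, adjusted p = 0.848).

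**Figure D1:**
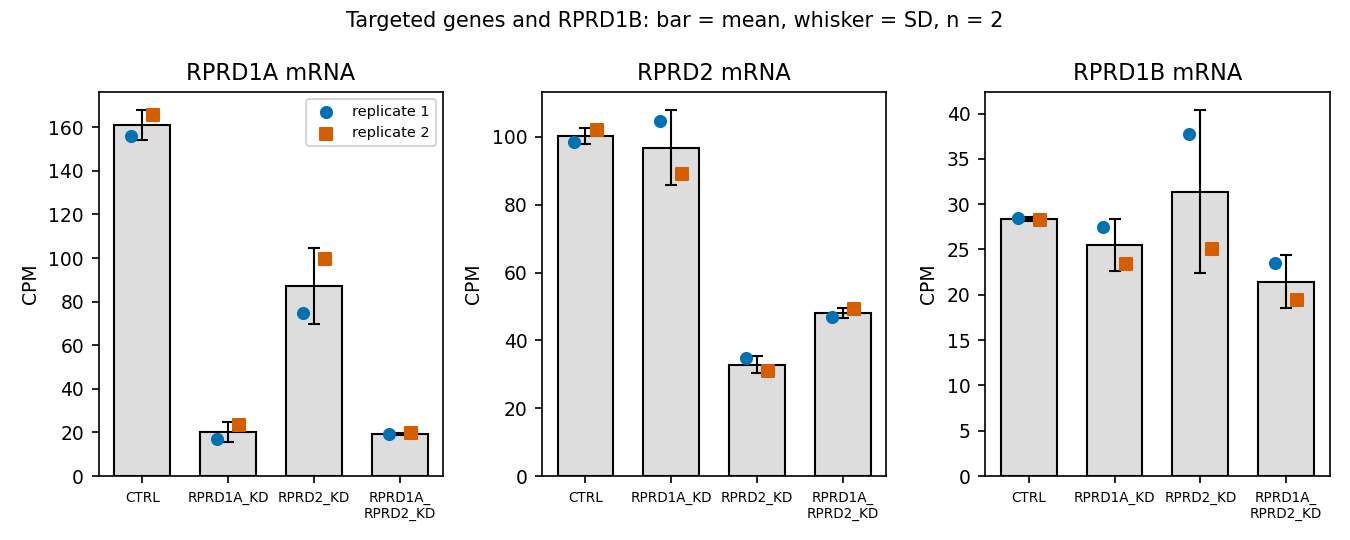
RPRD1A, RPRD2 and RPRD1B mRNA in CPM in CTRL, the single knockdowns and RPRD1A_RPRD2_KD; bars are means, whiskers the SD (n = 2), points the samples. RPRD1A was near 20 CPM in both groups whose labels name it, and RPRD2 was at 31.1 to 34.7 CPM in RPRD2_KD and at 47.0 and 49.2 CPM in the double knockdown.

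The single knockdowns give the depth of silencing for each target alone. RPRD1A was at 16.9 and 23.5 CPM in RPRD1A_KD, and the double knockdown differed from it by a log2 fold change of -0.07 (SE 0.283, edgeR, adjusted p = 0.963). RPRD2 was at 34.7 and 31.1 CPM in RPRD2_KD, below both double knockdown libraries, but the log2 difference of 0.55 did not pass the test (edgeR, adjusted p = 0.409). RPRD1A was also lower in RPRD2_KD than in CTRL, at 75 and 99.7 CPM, in samples whose label does not name it. This was not particular to RPRD2_KD: RPRD1A was at 86.4 and 102 CPM in RPRD1B_KD and at 69.7 and 85.3 CPM in RPRD1B_RPRD2_KD. From RPRD2_KD to the double knockdown it fell by 2.16 on the log2 scale (SE 0.257, edgeR, adjusted p = 0.0024), and it was the only gene called between those groups (0.00845% of 11834 tested, with 1176 genes at an unadjusted p under 0.05). That call was lost without RPRD2_KD replicate 2 or without RPRD1A_RPRD2_KD replicate 2. Between RPRD1A_KD and the double knockdown no gene was called by edgeR (0% of 11834, with 947 at an unadjusted p under 0.05) or by DESeq2.

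Across all genes RPRD1A was also the single gene that passed the test between RPRD1A_RPRD2_KD and CTRL (0.00845% of 11834 genes, with 837 at an unadjusted p under 0.05). DESeq2 called 5 genes, RPRD1A, RPRD2, SEC61G, TOR3A and SMAD5, and edgeR without a filter on low counts called 87. With replicate 1 as the only library of the group, RPRD1A was again the only call (0.00816% of 12255 genes). With replicate 2 as the only library, 573 genes were called (4.66% of 12297), of which 525 were lower (4.27%) and 48 higher (0.39%). In both of those fits the lone library is assumed to vary like the other groups, and the calls describe that library. RPRD1A was lower in both of those fits. In replicate 1, 9.33% of the 525 were lower than control by 0.5 or more on the log2 scale, against 9.40% of all genes tested, and 466 lay within 0.5 of control. Of the same lower genes, 1.9% were higher than control by 0.5 or more in replicate 1, against 9.91% of all genes tested. Their median difference in replicate 1 was -0.05, against 0.01 over all genes tested. The genes tested include many with a mean under 10 CPM, and shares over the genes above that level follow below. Both libraries were measured against the same 2 controls, which share their noise between them.

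The libraries can also be set side by side gene by gene. The difference of each library from the mean of both controls was taken on the log2(CPM + 1) scale, which understates changes of low genes, over the 8810 genes with a mean of 10 CPM or more. Replicate 1 had 29 genes at least 2-fold lower (0.329%) and 19 at least 2-fold higher (0.216%). Replicate 2 had 542 lower (6.15%) and 25 higher (0.284%), and 102 of the 542 were at least 4-fold lower. The other 12 knockdown libraries and replicate 1 had 11 to 52 genes 2-fold lower and 10 to 33 higher. The controls themselves differed: CTRL replicate 1 had 132 genes 2-fold lower and 116 higher than CTRL replicate 2. That comparison is between single libraries, without a mean of both controls. Of the 542 genes, 8 were also 2-fold lower in replicate 1, 43 were lower there by 0.5 to 1 on the log2 scale, 476 lay within 0.5 of control and 15 were higher by 0.5 to 1. Of the losses of replicate 2, 1.48% were thus shared by replicate 1 at the same threshold. The 43 partly shared genes made up 7.93% of the 542, and the 15 higher ones 2.77%. Over all 8810 genes, replicate 1 was lower by 0.5 or more in 462 (5.24%) and higher by 0.5 or more in 457 (5.19%).

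**Figure D2:**
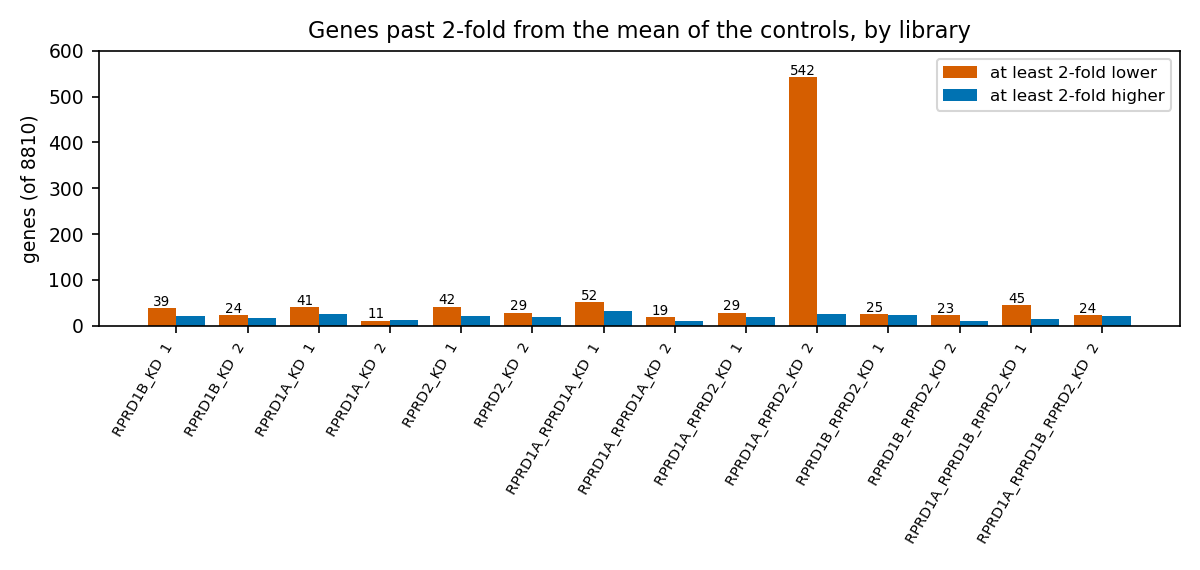
Number of the 8810 genes at least 2-fold lower (orange) or higher (blue) than the mean of both controls in each of the 14 knockdown libraries. Replicate 2 of RPRD1A_RPRD2_KD had 542 lower genes and the other 13 libraries 11 to 52.

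**Figure D3:**
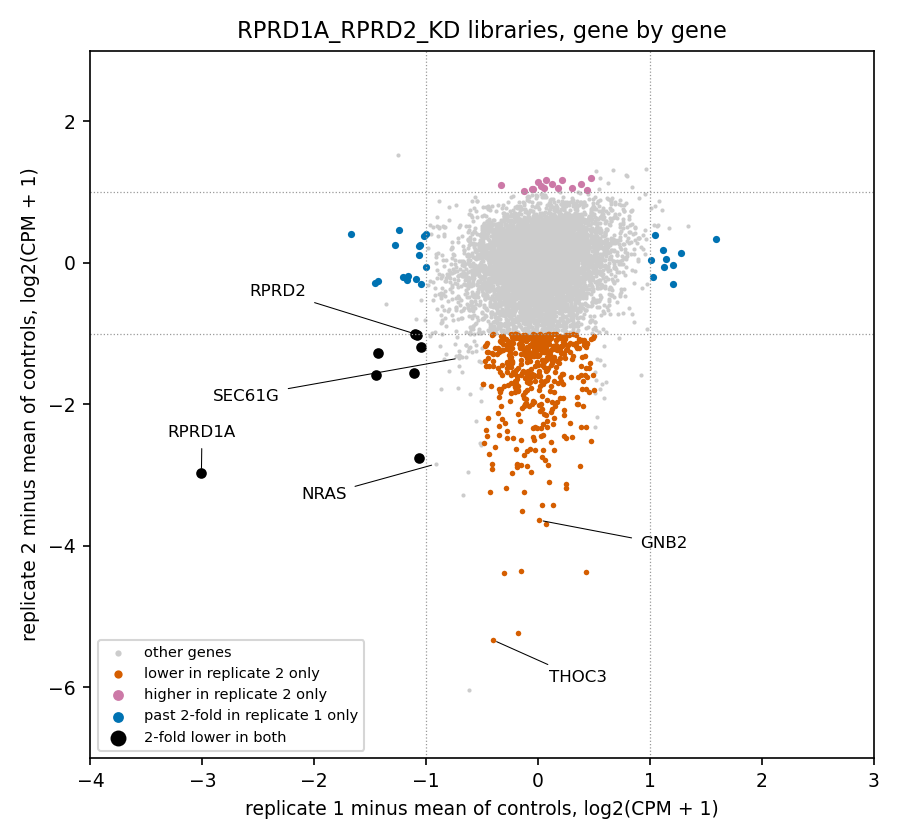
Difference from the mean of the controls on the log2(CPM + 1) scale in replicate 1 (x axis) and replicate 2 (y axis) for 8810 genes; dotted lines mark 2-fold. The 8 black points are lower in both libraries, and the orange points are the 476 genes lower in replicate 2 only.

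The 8 genes at least 2-fold lower in both libraries (0.0908% of 8810) were RPRD1A, RPRD2, IFNGR1, RGS9, PCSK1N, QPCTL, ZCCHC12 and the long noncoding RNA AC010969.2. No gene was 2-fold higher in both. With 1 control left out, 13 to 47 genes were past 2-fold in the same direction in both libraries. IFNGR1, the ligand-binding chain of the interferon gamma receptor, was at 17.1 and 18.2 CPM in CTRL and at 7.65 and 5.35 CPM in the double knockdown. It was at 11.1 and 18.3 CPM in RPRD1A_KD and at 15.6 and 19.8 CPM in RPRD2_KD, so its lowest 2 values of these 8 libraries were those of the double knockdown. RGS9, a regulator that speeds GTP hydrolysis by G proteins, was at 16 and 20.5 CPM in CTRL and at 6.01 and 5.35 CPM in the double knockdown, and at 12.1 to 21.7 CPM in the single knockdowns. RGS9 too was lowest in the double knockdown, with no overlap.

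AC010969.2 was at 24.5 and 17.8 CPM in CTRL, 7.11 and 8.02 CPM in the double knockdown, and 9.11 to 15.2 CPM in the single knockdowns, again with no overlap. PCSK1N, an inhibitor of prohormone processing, was at 10.8 and 24.6 CPM in CTRL, at 7.11 and 7.69 CPM in the double knockdown and at 6.75 CPM in one RPRD1A_KD library. QPCTL, a Golgi glutaminyl cyclase, was at 9.12 and 23.7 CPM in CTRL and at 6.56 and 1.34 CPM in the double knockdown. It was at 11.1 and 15.5 CPM in RPRD1A_KD and at 5.20 and 12.9 CPM in RPRD2_KD, overlapping the double knockdown. ZCCHC12 was at 52.5 and 108 CPM in CTRL and at 36.1 and 32.4 CPM in the double knockdown. It was at 32.8 and 54.8 CPM in RPRD1A_KD, overlapping the double knockdown, and at 58.5 and 107 CPM in RPRD2_KD. The controls of PCSK1N, QPCTL and ZCCHC12 differed from each other by more than 2-fold. Against the control of the same number, their differences in replicate 1 were -0.55, -0.42 and -0.53 on the log2 scale, short of 2-fold. None of the 8 except RPRD1A passed the edgeR test with both libraries and no replicate block. With the block, RPRD2 (adjusted p = 0.0044) and ZCCHC12 (adjusted p = 0.0366) passed as well.

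Among genes with a mean of 20 CPM or more in the higher group that lay outside both controls in both libraries, those with the largest shared difference included 2 further lower genes, ZSCAN9 and KIAA0232. ZSCAN9, a zinc finger gene, was at 16.5 and 24.6 CPM in CTRL and at 9.84 and 9.36 CPM in the double knockdown. KIAA0232 was at 19.95 and 21.9 CPM in CTRL and at 10.4 and 10.0 CPM in the double knockdown. On the higher side, NR6A1, an orphan nuclear receptor, led with 24 and 24.2 CPM in CTRL and 51.9 and 44.8 CPM in the double knockdown. It was also at 37.1 to 48.7 CPM in the single knockdowns, above both controls and overlapping the double knockdown, and at 31.3 to 48.7 CPM across all 12 other knockdown libraries. IL4R, a cytokine receptor chain, was at 9.69 and 17.3 CPM in CTRL and at 24.1 and 28.4 CPM in the double knockdown. CFLAR, an inhibitor of death receptor signalling, was at 34.8 and 20.1 CPM in CTRL and at 46.5 and 48.5 CPM in the double knockdown. The homeobox gene HOXB7 was at 13.7 CPM in both controls and at 25.1 and 23.4 CPM in the double knockdown. PGPEP1, a peptidase, and MCOLN3, a cation channel of endolysosomes, completed the higher group, with log2 fold changes of 0.81 (SE 0.266) and 0.86 (SE 0.465). Across the 12 other knockdown libraries, IL4R reached 24.14 CPM, HOXB7 24.8, PGPEP1 28.97 and MCOLN3 37 CPM, each overlapping the double knockdown. CFLAR was at 29.1 to 43.9 CPM in those 12, below both double knockdown libraries, with a median of 40.2 CPM, above both controls. None of these 8 genes passed the test with both libraries (edgeR, adjusted p of 0.263 for NR6A1 and 0.619 to 0.714 for the rest), and NR6A1 passed with the replicate block (adjusted p = 0.0366). Over all 8810 genes, both libraries lay below both controls for 1238 (14.1%) and above both for 1094 (12.4%). With a difference of at least 0.5 in both libraries as well, 126 genes were lower (1.43%) and 100 higher (1.14%).

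A smaller set of genes combined a moderate difference in replicate 1 with a like or larger one in replicate 2. SEC61G, NRAS, UBE2K, SMAD5, TOR3A, ESRRA, CAMSAP2, FERMT2 and EIF4G1 are named because they were among the 13 genes (0.11%) called in a fit with the replicate number as a block. SEC61G (chromosome 7, 54752250 to 54759974), the gamma subunit of the Sec61 channel that moves proteins into the endoplasmic reticulum, was at 856 and 753 CPM in CTRL. It was at 492 and 315 CPM in the double knockdown. All 12 other knockdown libraries lay between 629 and 793 CPM, so both double knockdown libraries were below each of the other 14. The log2 fold change of SEC61G was -0.997 (SE 0.178) with both libraries (edgeR, adjusted p = 0.13), -0.71 (SE 0.157) in replicate 1 alone (adjusted p = 0.703) and -1.34 (SE 0.161) in replicate 2 alone (adjusted p = 8.1e-05). Against RPRD1A_KD and RPRD2_KD the differences were -0.86 (adjusted p = 0.567) and -0.88 (adjusted p = 0.34), neither past the edgeR threshold.

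NRAS (chromosome 1, 114704469 to 114716894), a small GTPase of growth factor signalling, was at 186 and 172 CPM in CTRL, 94.6 CPM in replicate 1 and 24.1 CPM in replicate 2. It was at 107 and 83.8 CPM in RPRD1A_KD and at 216 and 182 CPM in RPRD2_KD, so replicate 1 matched the range of RPRD1A_KD and replicate 2 lay far below it. UBE2K, a ubiquitin-conjugating enzyme, was at 238 and 236 CPM in CTRL and at 155 and 103 CPM in the double knockdown. UBE2K was at 166 and 149 CPM in RPRD1A_KD and at 219 and 206 CPM in RPRD2_KD. SMAD5, a transducer of bone morphogenetic protein signals, was at 100.3 and 110.3 CPM in CTRL and at 55.2 and 53.2 CPM in the double knockdown. SMAD5 was at 55.9 and 70.0 CPM in RPRD1A_KD and at 94.5 and 90.4 CPM in RPRD2_KD. For NRAS, UBE2K and SMAD5, replicate 1 and both RPRD1A_KD libraries were below both controls, whereas the RPRD2_KD libraries were closer to control.

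TOR3A, a torsin-family ATPase of the endoplasmic reticulum, had the opposite order. It was at 304 and 285 CPM in CTRL and at 161 and 164 CPM in the double knockdown, with 160 and 143 CPM in RPRD2_KD and 274 and 226 CPM in RPRD1A_KD. The 4 libraries whose labels name RPRD2 were the lowest of these 8. Its log2 fold change was -0.86 (SE 0.163, edgeR, adjusted p = 0.153), nearly the same in replicate 1 (-0.87) as in replicate 2 (-0.84). The nuclear receptor ESRRA, the microtubule-end protein CAMSAP2, the integrin activator FERMT2 and the translation initiation scaffold EIF4G1 were lower in both libraries and lower in replicate 2 than in replicate 1. Their differences ran from -0.34 (EIF4G1) to -0.82 (CAMSAP2) in replicate 1 and from -0.80 (EIF4G1) to -1.46 (FERMT2) in replicate 2. The controls of EIF4G1 were at 1888 and 1065 CPM, and replicate 1, at 1122 CPM, lay between them. Against the control of the same replicate number, the order of EIF4G1 was reversed, with -0.75 in replicate 1 and -0.39 in replicate 2. Without the block, none of these 9 genes passed the edgeR test with both libraries.

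Further genes lower in both libraries lay among the 43 that replicate 1 shared in part. The glycolytic enzyme PGAM1 was at 115 and 118 CPM in CTRL, 72.7 CPM in replicate 1 and 11 CPM in replicate 2. The actin-binding protein PFN1 was at 555 and 929 CPM in CTRL, 431 CPM in replicate 1 and 288 CPM in replicate 2. The transcription factor MYC was at 26.8 and 44.2 CPM in CTRL, 20.8 CPM in replicate 1 and 13.4 CPM in replicate 2, and the replication clamp PCNA was at 142 and 213, then 114 and 85.9 CPM. In each of these genes the value of replicate 1 lay between the controls and replicate 2. PGAM1, PFN1, MYC and PCNA were chosen after their values were seen.

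The 476 genes lower in replicate 2 only (5.4% of 8810) formed the bulk of its losses. For 475 of the 476, replicate 2 had the lowest CPM of all 16 HEK293T libraries, and replicate 1 had the lowest in none. The rule that chose these genes largely fixes both counts. Their median level in replicate 2 was 36.3% of control (quartiles 26.1% and 42.7%), and 109 genes kept less than 25%. Over all 8810 genes, replicate 2 was the lowest of 16 for 1995 (22.6%) and the highest for 1721 (19.5%), whereas replicate 1 was lowest for 468 (5.31%) and highest for 476 (5.4%).

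The largest losses were close to complete. THOC3 (chromosome 5, 175917873 to 176034680), a subunit of the THO complex that couples transcription to mRNA export, was at 207 and 314 CPM in CTRL, 192 CPM in replicate 1 and 5.35 CPM in replicate 2. The other 12 knockdown libraries had 209 to 388 CPM. GNB2 (chromosome 7, 100673531 to 100679174), a G protein beta subunit, was at 486 and 678 CPM in CTRL, 578 CPM in replicate 1 and 45.1 CPM in replicate 2, with 577 to 692 CPM in the other 12. The tetraspanin CD9 (chromosome 12, 6199715 to 6238271) was at 91.2 and 75.2 CPM in CTRL, 66.7 CPM in replicate 1 and 3.01 CPM in replicate 2. For THOC3, GNB2 and CD9 the level of replicate 1 was within or slightly below the other libraries, and that of replicate 2 was below every one of them.

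NDUFB3, an accessory subunit of respiratory complex I, was at 52.5 and 86.1 CPM in CTRL, 60.7 CPM in replicate 1 and 5.02 CPM in replicate 2. The palmitoyltransferase ZDHHC8 was at 79.8 and 108 CPM in CTRL, 102 CPM in replicate 1 and 7.69 CPM in replicate 2. CRTC2, a coactivator of CREB, was at 10.3 and 36.5 CPM in CTRL and 17.5 CPM in replicate 1, and it had 0 counts in replicate 2, at least 23.3-fold lower than the control mean against the floor of 3 counts. The pseudogene AC009501.1 was at 10.3 and 66.5 CPM in CTRL, controls that lie far apart. It had 1 count in replicate 2, or 0.871% of the control mean (exact Poisson 95% interval 0.0221% to 4.85%, counting error only), with 36.1 CPM in replicate 1. RPL23AP42, a processed pseudogene of a ribosomal protein gene, was at 541 and 909 CPM in CTRL, 618 CPM in replicate 1 and 17.7 CPM in replicate 2. Reads of these pseudogenes, and of THOC3, can match near-identical copies elsewhere, so their counts are uncertain. Against the control of the same replicate number, the 8 leading losses kept their direction, from -3.64 for ZDHHC8 to -5.66 for AC009501.1. The difference of AC009501.1 moved from -4.37 to -5.66 and that of CRTC2 from -4.36 to -5.23. In replicate 1 the differences of these genes moved from 0.43 to 1.72 and from -0.15 to 0.72. On that basis AC009501.1 and CRTC2 lay outside the limit of 0.5 for a loss in replicate 2 only.

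Abundant transcripts were among the losses as well. RCC2, a regulator of mitosis, was at 1304 and 1255 CPM in CTRL, 1196 CPM in replicate 1 and 174 CPM in replicate 2. The splicing factor SRSF1 was at 1503 and 775 CPM in CTRL, 1213 CPM in replicate 1 and 275 CPM in replicate 2. The redox protein TXN was at 324 and 433 CPM in CTRL, 406 CPM in replicate 1 and 64.2 CPM in replicate 2, and the kinase AKT1 at 50.2 and 70.6, then 63.4 and 7.36 CPM. RCC2, TXN and AKT1 were chosen after their values were seen. The share of genes 2-fold lower in replicate 2 was 4.2% to 8.29% in every decile of the expression range, with no trend.

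The transcript ends of the lost genes were shifted towards a lower GC content. The last 60 bases of the longest annotated transcript of each gene (GENCODE 29, GRCh38, 8685 of the 8810 genes) had a median GC content of 31.7% over all genes and of 24.2% over the 476 genes lower in replicate 2 only. Over the last 300 bases the medians were 39.3% and 34%, and over the whole transcript 47.6% and 44.2%. In the decile with the most A/T-rich ends (GC content 5% to 21.7%), 18.9% were at least 2-fold lower in replicate 2. The share declined to 10.9% and 6.56% in the next 2 deciles and was 1.96% in the most GC-rich decile (48.3% to 90.0%). In replicate 1 the share was 0.115% to 0.69% in every decile.

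The shift was not limited to the genes past 2-fold. The median difference of replicate 2 from control ran from -0.38 in the most A/T-rich decile to 0.27 in the most GC-rich decile. In replicate 1 the medians were 0.04 and -0.06, and in the other 12 knockdown libraries they were 0.04 to 0.09 and -0.11 to -0.02. The gap between the medians of these extreme deciles, taken from each library's deviation from the mean of all 16 and so without reference to the controls alone, was 0.696 in replicate 2 and -0.146 to 0.095 in the other 15. The annotated end of the longest transcript is not always the end in use in these cells, and whether end composition has a part in the losses was not tested.

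**Figure D4:**
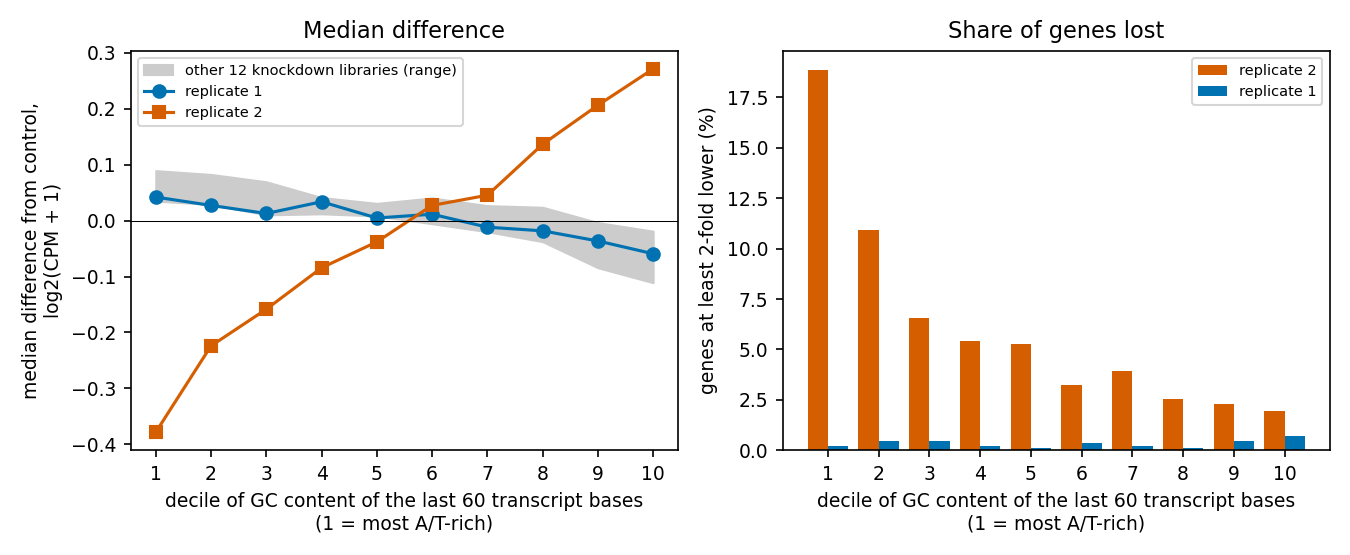
Left, median difference from control on the log2(CPM + 1) scale by deciles of GC content of the last 60 transcript bases in replicate 1, replicate 2 and the range of the other 12 knockdown libraries; right, percentage of genes at least 2-fold lower. Replicate 2 runs from -0.38 to 0.27 on the left and from 18.9% to 1.96% on the right, and replicate 1 is flat on both.

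Among all 256 4-letter words searched in those 60 bases on the transcript strand, TATA showed the largest excess. It was present in 49.1% of the 466 lost genes with an annotated end and in 29.3% of all 8685 genes. Genes whose end held TATA were 2-fold lower in replicate 2 in 10.3% of cases, against 4.36% of those without it. The next words in rank, TTTA, TTAT and ATTT, overlap TATA and one another and are likewise made of A and T, so they describe the same A/T-richness. The word was picked by this search, and its presence is a description. End composition did not mark every loss: 92 of the 466 (19.7%) had an end GC content above the median of all genes, among them THOC3 (40%), ZDHHC8 (33.3%) and both pseudogenes AC009501.1 (46.7%) and RPL23AP42 (43.3%).

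The edgeR test of how far replicate 2 departs from its group and replicate number called 1546 genes (13.1% of 11834), 963 lower (8.14%) and 583 higher (4.93%). Without the replicate number as a term it called 431, of which 394 were lower and 37 higher. With that term, the median end GC content was 25% in the 963, 40% in the 583 and 31.7% in all genes tested. The genes called lower in the fit of replicate 2 alone had a median of 23.3% and the 48 called higher 38.3%. In replicate 1, the 292 genes lower at an unadjusted p under 0.05 had a median of 33.3% and the 215 higher 31.7%, next to 31.7% in all genes tested.

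The losses extended over other properties, but unevenly by chromosome and transcript length. They came from every autosome and the X chromosome, at 2.43% of the genes considered on chromosome 19 to 8.84% on chromosome 13. Of the 476 genes, 450 were protein-coding, 10 long noncoding and 6 pseudogenes, next to 8378, 155 and 124 of all 8810. Their median transcript length was 3486 bases, against 3777 for all genes. Across deciles of transcript length, the share lower in replicate 2 only was highest in decile 4 (7.26%, 2651 to 3200 bases). It was lowest in deciles 9 (3.69%) and 10 (2.30%), those with the longest transcripts.

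Genes higher in replicate 2 only numbered 15 of 8810, but 72 against the control of the same number (6 of them shared with the 15), and 26 without CTRL replicate 1 or 60 without CTRL replicate 2. DOCK6 was at 54.2 and 56.0 CPM in CTRL, 55.2 CPM in replicate 1 and 122.7 CPM in replicate 2. The homeobox gene HOXB13 was at 15.4 and 11.8 CPM in CTRL, 14.2 CPM in replicate 1 and 31.8 CPM in replicate 2. COPG1 (coatomer), HTRA1 (a secreted protease) and PTPRA (a receptor phosphatase) were the other named members, with differences of 1.12 to 1.20 in replicate 2 and 0.12 to 0.48 in replicate 1. For all 15, replicate 2 was the highest of 16 libraries, which the rule that chose them largely fixes. Their median end GC content was 40%.

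Genes past 2-fold in replicate 1 only numbered 26, of which 16 were lower and 10 higher, but 42 against the control of the same number and 36 to 69 with 1 control left out. TUBB2B, a tubulin, was the most abundant, with 305 and 273 CPM in CTRL, 143 CPM in replicate 1 and 278 CPM in replicate 2 (chosen after its values were seen). The glypican GPC4 was at 51.3 and 51.9 CPM in CTRL, 22.4 CPM in replicate 1 and 43.5 CPM in replicate 2. The G protein gamma subunit GNG4 was at 31.9 and 57.4 CPM in CTRL, 18 CPM in replicate 1 and 37.1 CPM in replicate 2, and the phosphatase inhibitor PPP1R14A at 27.9 and 25.5, then 12 and 22.7 CPM. TMEM127, CASZ1 and GOLGA6L10 led the higher side, with differences of 1.21, 1.28 and 1.13 in replicate 1 and of -0.03, 0.14 and -0.06 in replicate 2. GOLGA6L10 belongs to a family of near-identical genes, so its count is uncertain. Against the control of the same number, its difference in replicate 1 was 0.80, short of 2-fold. None of these genes was called in replicate 1 alone (edgeR, adjusted p of 0.52 for GPC4, 0.788 for TMEM127 and 0.9999 for the other named ones).

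The lists of genes that act with RPRD proteins at the CTD were read against those figures, 0.329% and 6.15% of genes 2-fold lower in replicates 1 and 2, with a median difference of 0.00 over all 8810 genes in both. Of the 8 genes with a CTD-interaction domain, RPRD1A and RPRD2 were 2-fold lower in both libraries. SCAF4, which acts on transcript ends, was at 27.4 and 27.8 CPM in CTRL, 31.7 CPM in replicate 1 and 12.7 CPM in replicate 2, and did not pass the test in replicate 2 alone (edgeR, adjusted p = 0.122). PCF11, a termination factor, was at 41.6 and 43.3 CPM in CTRL, 43.2 CPM in replicate 1 and 22.7 CPM in replicate 2 (adjusted p = 0.0574). SCAF8, U2SURP and CHERP lay within 0.5 of control in both libraries. Apart from the 2 targets, no member was 2-fold lower in replicate 1.

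Of the 11 CTD kinase and cyclin genes considered, 4 fell in replicate 2 and none in replicate 1. They include all 3 genes of the kinase module of TFIIH, which phosphorylates the CTD at promoters. CDK7 was at 12 and 19.1 CPM in CTRL, 20.2 CPM in replicate 1 and 3.68 CPM in replicate 2. Its cyclin CCNH was at 13.1 and 12.8 CPM in CTRL, 14.2 CPM in replicate 1 and 2.34 CPM in replicate 2. The assembly factor MNAT1 was at 42.8 and 44.7 CPM in CTRL, 46.5 CPM in replicate 1 and 16.7 CPM in replicate 2. CDK8, the kinase of Mediator, was at 27.4 and 21.4 CPM in CTRL, 27.9 CPM in replicate 1 and 5.68 CPM in replicate 2. In all 4 genes replicate 1 was above the mean of the controls. Their adjusted p in replicate 2 alone were 0.0433 for CDK7, 0.0061 for CCNH, 0.0155 for MNAT1 and 0.008 for CDK8 (edgeR). The elongation kinases CDK12 and CDK13 and the P-TEFb cyclins CCNT1 and CCNT2 lay within 0.5 of control in both libraries. The end GC content of the 4 lost genes was 16.7% in CDK7 and CDK8, 38.3% in CCNH and 40% in MNAT1.

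None of the 8 CTD phosphatase genes was 2-fold lower in either library. SSU72, which removes phosphate from serine 5 of the repeats, was at 200.1 and 201.4 CPM in CTRL, 171 CPM in replicate 1 and 228 CPM in replicate 2. CTDP1, the most shifted in replicate 2, was at 55.3 and 82.5 CPM in CTRL, 57.4 CPM in replicate 1 and 40.8 CPM in replicate 2. RPAP2, a phosphatase that RPRD proteins associate with, was at 41.6 and 23.7 CPM in CTRL and at 37.7 and 24.7 CPM in the double knockdown, within the range of the controls.

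Of the 12 polymerase II subunit genes, POLR2B and POLR2K fell in replicate 2 only. POLR2B, the second-largest subunit, was at 195 and 300 CPM in CTRL, 227 CPM in replicate 1 and 91.9 CPM in replicate 2 (edgeR in replicate 2 alone, adjusted p = 0.0044). POLR2K, a small subunit shared by the nuclear polymerases, was at 36.5 and 46.9 CPM in CTRL, 44.3 CPM in replicate 1 and 16.7 CPM in replicate 2 (adjusted p = 0.0059). POLR2A, which carries the CTD, was at 654 and 494 CPM in CTRL and at 586 and 503 CPM in the double knockdown, between the controls in both libraries. POLR2I, with an end GC content of 60%, was at 104 and 111 CPM in CTRL, 79.3 CPM in replicate 1 and 166 CPM in replicate 2.

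Of 23 elongation and termination factor genes, 2 fell in replicate 2 and none in replicate 1. TCEA1, which rescues stalled polymerase, was at 39.9 and 49.7 CPM in CTRL, 41.0 CPM in replicate 1 and 10.4 CPM in replicate 2. HEXIM1, the inhibitor of P-TEFb, was at 85.5 and 82.5 CPM in CTRL, 116 CPM in replicate 1 and 23.1 CPM in replicate 2, so the replicates lay on opposite sides of the controls. Both fell in replicate 2 alone (edgeR, adjusted p of 0.0015 for TCEA1 and 0.0014 for HEXIM1). SSRP1, a histone chaperone subunit and the most abundant member, was at 952 and 1029 CPM in CTRL and at 834 and 1173 CPM in the double knockdown.

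In the cleavage and polyadenylation list 1 of 19 genes fell in replicate 2. NUDT21, the small subunit of cleavage factor I, was at 131 and 202 CPM in CTRL, 159 CPM in replicate 1 and 70.5 CPM in replicate 2 (edgeR in replicate 2 alone, adjusted p = 0.0071). The median difference of the list was -0.05 in replicate 1 and -0.28 in replicate 2, and its median end GC content was 25%. CSTF2 was the highest member in replicate 2, at 39.1 CPM next to 15.4 and 31.0 CPM in CTRL and 25.7 CPM in replicate 1.

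Of the 13 Integrator genes, which encode a complex that cleaves nascent RNA, INTS8, INTS9 and INTS14 fell in replicate 2. INTS8 was at 29.1 and 30.1 CPM in CTRL, 38.3 CPM in replicate 1 and 6.69 CPM in replicate 2. INTS9 was at 30.2 and 32.4 CPM in CTRL, 25.1 CPM in replicate 1 and 8.69 CPM in replicate 2. INTS14 was at 26.8 and 41.0 CPM in CTRL, 23 CPM in replicate 1 and 9.03 CPM in replicate 2. Replicate 1 was below both controls for INTS9 and INTS14 and above both for INTS8. The list's median difference was -0.06 in replicate 1 and -0.49 in replicate 2. With both libraries, RPRD1A was the only one of the 94 genes of these 7 lists considered that passed the edgeR test.

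**Figure D5:**
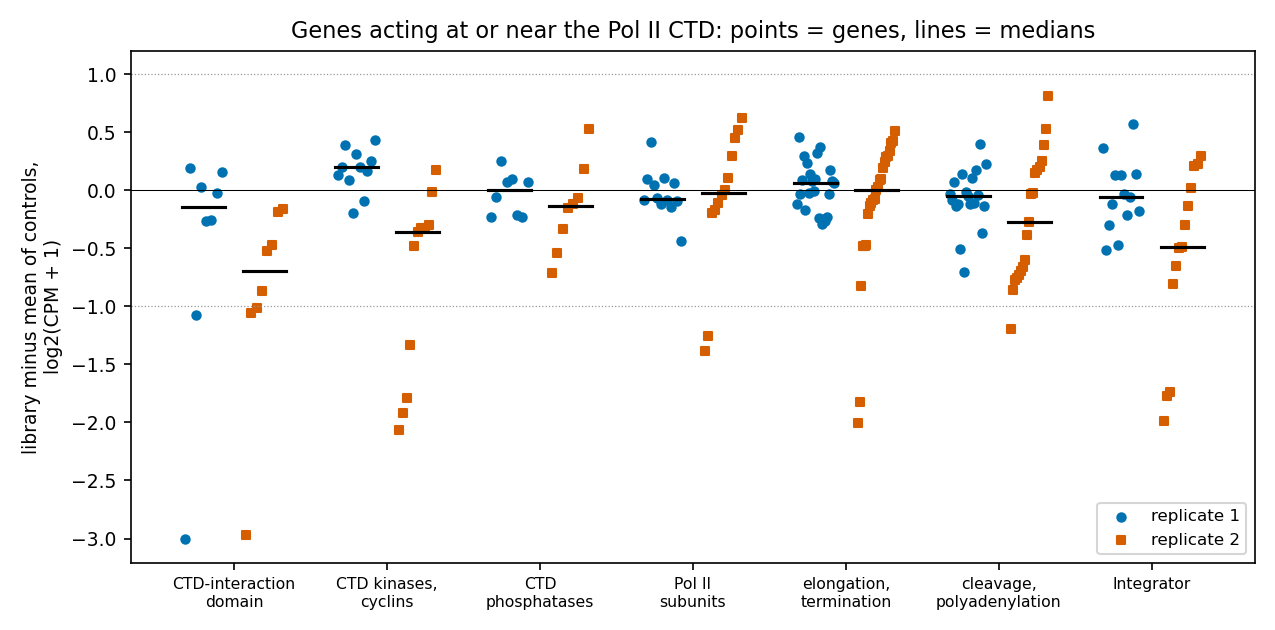
Difference of each gene from the mean of the controls on the log2(CPM + 1) scale in replicate 1 (blue) and replicate 2 (orange) for 7 gene lists; lines are list medians. In replicate 1 only RPRD1A and RPRD2 pass the lower 2-fold line, and in replicate 2 members of 6 of the 7 lists do.

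The same split appeared in housekeeping and stress genes. SR and hnRNP splicing factors were 2-fold lower in replicate 2 at 4 of 32 genes, namely SRSF1, HNRNPF, HNRNPH3 and HNRNPA3, and at none in replicate 1. HNRNPF was at 722 and 695 CPM in CTRL, 708 CPM in replicate 1 and 261 CPM in replicate 2, and all 4 fell in the fit of replicate 2 alone. Of 15 heat shock and chaperone genes 4 were 2-fold lower there, and HSP90B1, HSPA1B and BAG3 of them passed the test, whereas DNAJB9 did not (edgeR, adjusted p = 0.0732). HSPA1B was at 810 and 854 CPM in CTRL, 720 CPM in replicate 1 and 280 CPM in replicate 2, but its coding sequence is nearly that of HSPA1A, so its count is uncertain. Of 13 immediate early genes CYR61, ID1 and MYC were 2-fold lower in replicate 2, and MYC did not pass the test there (edgeR, adjusted p = 0.107). CYR61 went from 63.9 and 65.6 CPM in CTRL and 60.1 CPM in replicate 1 to 15.7 CPM.

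In protein complexes of the mitochondrion and the ribosome, the share of genes 2-fold lower in replicate 2 was near or below the 6.15% of all genes. Of 74 mitoribosomal genes 5 were 2-fold lower in replicate 2 only, with MRPL39 at 14.8 and 18.2 CPM in CTRL, 19.7 CPM in replicate 1 and 1.00 CPM in replicate 2. In the same list MRPS18B and MRPS21 rose in replicate 2 alone (edgeR, adjusted p of 0.0379 and 0.03). Of 73 respiratory chain genes NDUFB3, SDHD and ATP5H were 2-fold lower in replicate 2, and NDUFV1 rose there, from 82.7 and 89.3 CPM in CTRL and 79.3 CPM in replicate 1 to 146 CPM. The list's median difference was 0.17 in replicate 2 and -0.06 in replicate 1. Among 74 cytosolic ribosomal protein genes none was past 2-fold in either library, and the median was 0.28 in replicate 2 and -0.08 in replicate 1. RPL34 fell in replicate 2 alone, from 1179 and 1091 CPM in CTRL and 1287 CPM in replicate 1 to 622 CPM, while RPS14, RPS12 and RPL37A rose.

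Other lists held few or no members past 2-fold. In replicate 2, 2 of 39 proteasome genes (PSMA3 and PSMA5), 2 of 36 cell cycle genes (BUB1B and PCNA), 1 of 27 sterol and fatty acid synthesis genes (IDI1), 10 of 168 ZNF genes and 4 of 127 solute carriers were 2-fold lower. None of 17 p53 response genes, 33 RAB genes, 14 small nucleolar RNA host genes or 11 small nucleolar RNAs was. In replicate 1, RAB3B, SLC30A6 and the p53 target SESN1 were past 2-fold, with differences of -1.46, -1.05 and 1.01, and within 0.5 of control in replicate 2. In the 23 genes of the ATF4 response and transfer RNA synthetases, CHAC1 moved in opposite directions, at 4.56 and 17.8 CPM in CTRL, 3.28 CPM in replicate 1 and 28.4 CPM in replicate 2. Its controls differed by more than 2-fold. It was the only gene of the 8810 that was 2-fold lower in replicate 1 and 2-fold higher in replicate 2.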

How the data were processed

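QuantSeq 3′ end libraries of 16 HEK293T samples were used, 2 in each of 8 groups. The values are raw counts per gene, as deposited by the authors, and reads in no gene were dropped. FastQC, STAR, HTSeq and DESeq2, with GRCh38, are named per the submitters' processing notes. The annotation, versions and counting strand are not given in the sources used here, so overlapping and antisense genes cannot be told apart.

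Samples were grouped by title. Genes were filtered with filterByExpr (minimum count 10, minimum total 15) and tested with the quasi-likelihood test of edgeR 4.0.16 in R 4.3.3 (limma 3.58.1) on TMM-normalised libraries, all 16 samples sharing 1 estimate of spread, with Benjamini-Hochberg adjustment and a threshold of 0.05. DESeq2 1.42.0, other filters and scalings, a GC correction (lowess span 0.3), the replicate block and each library left out were alternatives. The GC correction used the GC content of the whole longest transcript of each gene. No correction for the GC content of the last 60 bases was run. Differences of single libraries were taken on log2(CPM + 1) over genes with a mean of 10 CPM or more. The code was tested on simulated data. Counting intervals cover counting error only.

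Named genes were the RPRD family, genes called with or without the replicate block, the largest shared and single-library differences, and the extremes of each list. Members, lists and tests were chosen with earlier results of these data known. End composition was described after the values were seen.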

Additional observations from a re-analysis of the deposited data

How the results depend on the processing

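RPRD1A was called under every alternative run for the comparison with CTRL (adjusted p from 1.8e-27 to 0.0013). Against CTRL the count of 1 gene became 5 with DESeq2 and 87 with no filter on low counts. Leaving out 1 library at a time gave 1 to 573, with 573 without double knockdown replicate 1. Against RPRD1A_KD the count of 0 became 124 with no filter and ranged from 0 to 718 with 1 library left out. Against RPRD2_KD the count of 1 became 2 with DESeq2, 177 with no filter and 0 with only the compared groups, and ranged from 0 to 875 with 1 library left out. The highest of each range was reached without double knockdown replicate 1. Replicate 1 alone gave 1 gene, 2 with DESeq2 and 2 with no filter, and 1 to 1 with a control left out. Replicate 2 alone gave 573 genes, and 361 (without CTRL replicate 2) to 589 with a control left out. The cause of these differences was not tested.

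With the replicate number as a block (replicate block), the counts were 13 against CTRL, 5 against RPRD1A_KD, 57 against RPRD2_KD, 25 for replicate 1 alone and 2160 for replicate 2 alone. With a GC correction and the replicate block they were 13, 8, 67, 26 and 1748. Without double knockdown replicate 2 and with the replicate block, an alternative chosen after seeing the data, 25 genes were called against CTRL. The departure of replicate 2 gave 1546 genes with the block and 431 with no replicate block. Whether the pairing holds for the double knockdown is unsettled, and the labels do not say what the replicate numbers share. The correlation of deviations from group means was -0.0113 between CTRL and the double knockdown and 0.0458 between RPRD2_KD and the double knockdown, below the 0.1 set as the bar for every pair. It was 0.104 to 0.265 between the double knockdown and the other 5 groups, and 0.29 to 0.524 among groups other than the double knockdown, and replicate 2, which stands apart, enters each of the low values.

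The 8 shared genes became 2 with a pseudocount of 5, 3 with a mean of 50 CPM or more, and 1 at 3-fold, and 13 to 47 with 1 control. The 476 genes lower in replicate 2 only became 211 with a mean of 50 CPM or more and 172 at 3-fold, and 444 to 488 with 1 control. The 15 higher in replicate 2 only became 72 against the same-numbered control, 4, 2 and 0 in those 3 settings, and 26 to 60 with 1 control. The 26 genes of replicate 1 only became 42 against the same-numbered control, 7, 1 and 2 in those settings, and 36 to 69 with 1 control.

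The log2 fold change of AC009501.1 ranged from -6.67 to 0.61 with 1 library left out and was 0.060 without replicate 2 with the replicate block. That of ZDHHC8 ranged from -3.59 to 0.11 and was 0.082 without replicate 2 with the block. DOCK6 ranged from -0.00022 to 1.17, TMEM127 from -0.040 to 1.24 and GOLGA6L10 from -0.069 to 1.15.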
